A study of Mus musculus with 7 samples.

Results

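The genes described here encode the cytokines by which dendritic cells instruct T and NK cells: the IL-12 family subunits Il12b, Il12a, Il27 and Ebi3, the IL-15 pair Il15 and Il15ra, the inflammatory cytokines Il1b, Tnf and Il6, and the regulatory cytokine Il10. Members were taken by annotated gene symbol, with the probe set of highest mean where a symbol had several, and 9 of the 10 were found among 19505 named genes, each with 1 probe set. Il12b, the shared beta subunit of IL-12 and IL-23, was matched to 0 probe sets by symbol, gene identifier or transcript accession and was not analysed here.

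RNA was measured on whole-transcript microarrays in type 1 conventional dendritic cells (cDC1), sorted from the spleens of C57BL/6 mice carrying B16-OVA tumors, a mouse melanoma line that expresses ovalbumin. The control group (WT) had 3 arrays from wild-type mice, and the other (KO) had 4 arrays from mice in which Cre driven by the CD11c promoter acts on floxed OPA1, the inner mitochondrial membrane fusion GTPase. CD11c is also active in other dendritic cells and in some macrophages, so Cre activity is not limited to cDC1. Mice of both groups bore the tumor. No age, stimulation of the cells or number of mice per array is in the labels, so p-values cover the array-to-array spread, part of which may be technical. Arrays are named below as they are labelled.

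cDC1 present tumor antigen to CD8 T cells and are a main source of IL-12, which drives interferon gamma production by T and NK cells. IL-12 is a dimer of the Il12a and Il12b products, IL-27 is a dimer of the Il27 and Ebi3 products, and IL-15 is shown to T and NK cells bound to the receptor chain that Il15ra encodes. Transcription of Il1b, Tnf, Il6 and Il12b is known to be induced through NF-kB after microbial sensing or CD40 ligation, and IL-10 restrains it.

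Some arrays stood apart before any cytokine was considered. Opa1 read 8.14, 8.80 and 9.15 on WT 1 to WT 3 and 7.70, 7.10, 6.85 and 8.24 on KO 1 to KO 4 (log2 values), so the array labelled KO 4 lay above the array labelled WT 1. Where the Opa1 probes lie relative to the deleted part was not analysed here. Of the cDC1 marker list 12 of 12 genes were measured and lay above the median of the negative control probe sets on every array, but its mean differed from that of KO by -0.88 for WT 1, -2.59 for WT 2 and -0.08 for WT 3, while single KO arrays lay within -0.04 to 0.06. Xcr1, the chemokine receptor that defines cDC1, read 7.97 on WT 2 and at least 12.12 on the other arrays. The mean of 12 melanocyte markers stood 4.28, 4.61 and 1.54 above the KO mean on WT 1 to WT 3. The correlation across genes was 0.982 between WT 1 and WT 2, 0.924 to 0.954 between either of them and another array, and 0.988 to 0.993 within the remaining 5. Each cytokine is therefore also given against WT 3 alone, a comparison with 1 WT array whose spread is borrowed from the KO arrays.

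No cytokine gene differed between KO and WT past the threshold. Of the 9 measured, 0 passed an adjusted p of 0.05 (limma, Benjamini-Hochberg over all 19505 genes), where 0 genes, or 0% of all tested, did so. Il1b had the smallest p of the 9 and Il6 the largest difference; both had lower means in KO. At an unadjusted p under 0.05 there was 1 of the 9, Il1b, against 19.6% of all genes. In 0 of the 9 were the groups free of overlap, against 13.8% of all genes. The mean was lower in KO for 5 and higher for 4, where 40.1% of all genes had a lower mean in KO. The median difference of the 9 was -0.06 on the log2 scale, with a range of -1.0 to 0.21, and that of all genes was 0.06. Against WT 3 alone 8 of the 9 had a lower mean in KO and 1, Il27, a higher one, where 44.7% of all genes were lower. The median difference was then -0.37, against 0.02 for all genes, and 3 of the 9 (Il15, Il6 and Il1b) had an unadjusted p under 0.05, against 5.92% of all genes, with 0 past the adjusted threshold. That comparison rests on 1 WT array. Lower KO means against WT 3 alone were not particular to the cytokines. They were also found for 12 of 13 receptors of these cytokines, 8 of 9 antagonists and 12 of 13 mature dendritic cell markers. Of other cytokines 14 of 31 were lower, and of cDC1 markers 4 of 12. In bulk RNA of this kind fewer cells of a type and less RNA per cell cannot be told apart.

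**Figure D1:**
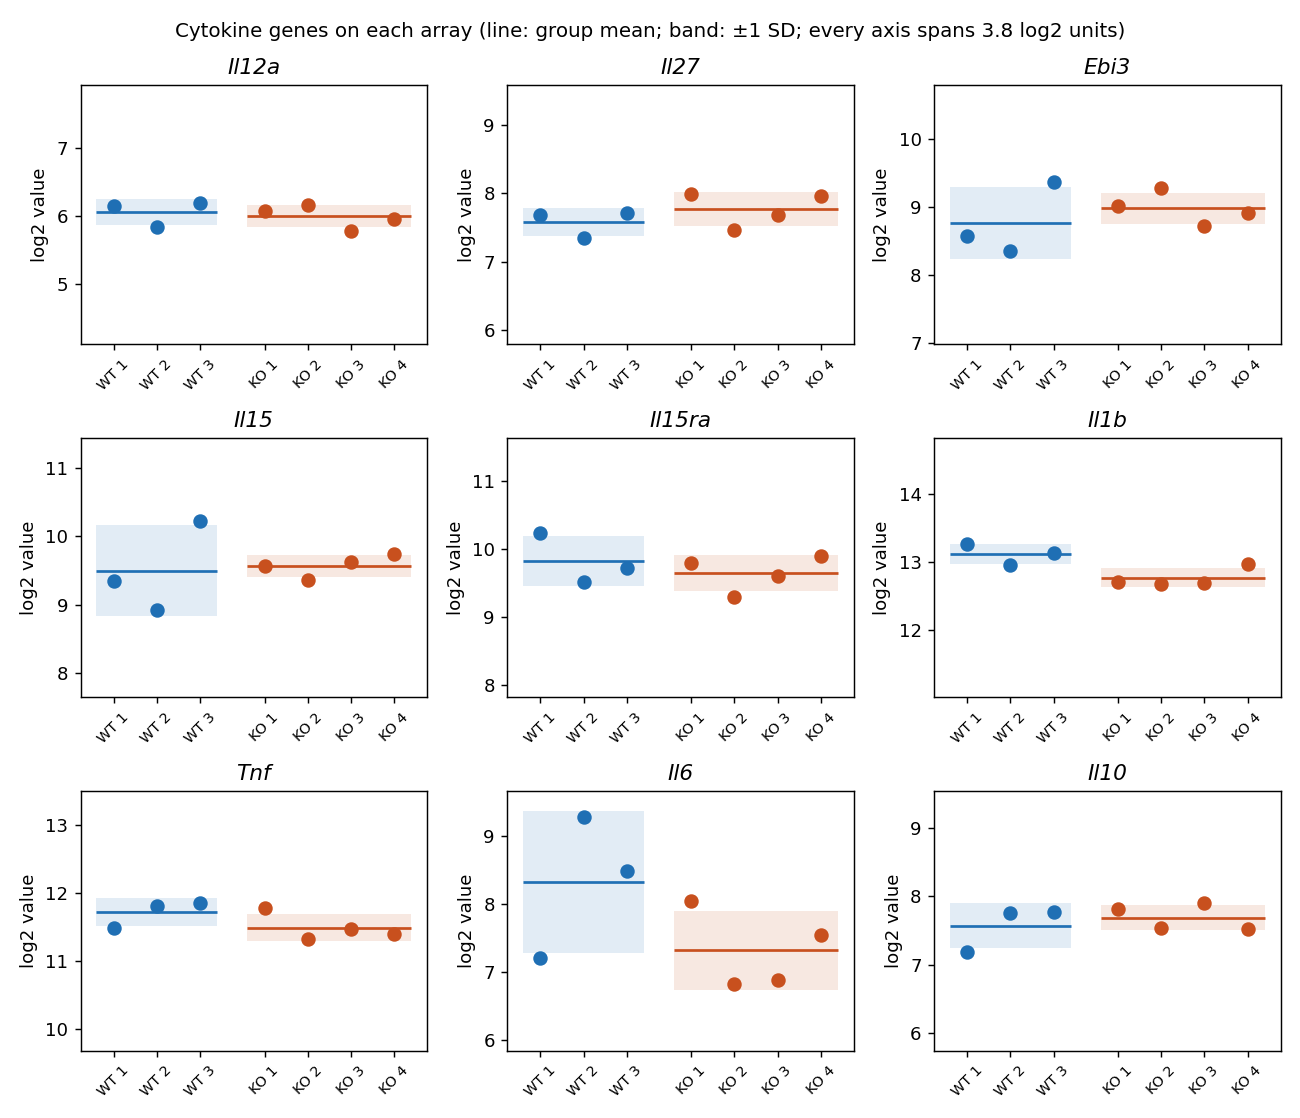
The log2 value of each cytokine gene (y axis) on each array (x axis), with points for arrays, lines for group means and bands for ±1 SD (3 WT, 4 KO); each axis spans the same number of log2 units. Il6 spreads most, from 6.83 on KO 2 to 9.27 on WT 2, and the WT and KO points overlap for every gene.

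All of the inflammatory cytokines Il1b, Tnf and Il6 had a lower mean in KO, with and without WT 1 and WT 2. Against WT 3 alone the IL-15 pair was lower as well (Il15 -0.65, Il15ra -0.07). The promoters of Il1b, Tnf and Il6 are shown because Tnf and Il6 also followed each other across the arrays. The sequences are the 250 bases before the transcription start from RefSeq (GRCm38.p6), 5' to 3' on the gene's own strand, at chr2:129371140-129371389 (minus strand) for Il1b, chr17:35202008-35202257 (minus strand) for Tnf and chr5:30012864-30013113 (plus strand) for Il6. Capitals mark matches, on either strand, to the NF-kB consensus, the C/EBP motif TTGCNNAA, the AP-1 motif TGANTCA and the TATA box TATAAA.
Il1b: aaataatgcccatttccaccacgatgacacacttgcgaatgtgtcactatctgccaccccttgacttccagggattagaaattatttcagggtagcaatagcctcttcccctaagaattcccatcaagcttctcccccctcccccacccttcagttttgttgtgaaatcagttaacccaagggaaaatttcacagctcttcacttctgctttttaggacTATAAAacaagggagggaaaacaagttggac
Tnf: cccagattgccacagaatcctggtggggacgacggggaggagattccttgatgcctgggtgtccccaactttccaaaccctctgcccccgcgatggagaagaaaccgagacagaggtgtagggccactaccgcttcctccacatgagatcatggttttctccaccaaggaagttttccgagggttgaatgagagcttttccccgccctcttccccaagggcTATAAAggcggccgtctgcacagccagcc
Il6: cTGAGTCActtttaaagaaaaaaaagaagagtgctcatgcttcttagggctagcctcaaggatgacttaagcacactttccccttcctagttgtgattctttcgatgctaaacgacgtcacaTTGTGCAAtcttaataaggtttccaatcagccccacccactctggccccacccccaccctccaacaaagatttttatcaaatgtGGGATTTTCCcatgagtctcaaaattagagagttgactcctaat

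Il1b and Tnf each had a TATA box, ending 26 and 24 bases before the start. The Il6 window held an NF-kB match 44 to 35 bases before the start, a C/EBP match at 128 to 121 and an AP-1 match at 249 to 243, none of them overlapping another. Among all 32851 promoter windows of that length, 3.9% held the NF-kB consensus, 9.56% the C/EBP motif, 6.75% the AP-1 motif and 12.4% the TATA box. Of the 6 measured members with a promoter sequence here, Ebi3 also held the NF-kB consensus and Il15ra the AP-1 motif. These are matches of letters only.

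Il1b encodes the precursor of IL-1 beta, which caspase-1 cleaves before release. Il1b read 13.26, 12.96 and 13.14 on WT 1 to WT 3, and 12.71, 12.68, 12.70 and 12.97 on KO 1 to KO 4. KO 1, KO 2 and KO 3 lay close together below every WT array, while KO 4 reached the level of WT 2. WT averaged 13.12 ± 0.15 (SD, n = 3) and KO 12.77 ± 0.14 (SD, n = 4), and the difference, KO minus WT here and below, was -0.36 on the log2 scale with a standard error of 0.120 and a 95% interval of -0.63 to -0.08. After adjustment over all genes it missed the threshold (limma, adjusted p = 0.223). Permuting the arrays for Il1b alone (exact, two-sided) gave p = 0.114, where the smallest p that 3 against 4 arrays allow is 0.0571, so that no gene could reach 0.05 in that test. The difference was as large against WT 3 alone (-0.37). Neutrophil markers, whose cells are known to carry Il1b, had a list mean of 0.32 on KO 4 relative to the KO mean, the highest of the 7 arrays, and -0.60 to -0.16 on the WT arrays; mature dendritic cell markers stood at 0.40 on KO 4 and at 0.50 to 1.13 on the WT arrays. Their part in the Il1b values was not tested.

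Il6 encodes a cytokine that acts on T and B cells and on the acute phase response. Il6 read 7.21, 9.27 and 8.49 on WT 1 to WT 3, and 8.04, 6.83, 6.88 and 7.54 on KO 1 to KO 4. WT 2 and WT 3 exceeded all 4 KO arrays, while WT 1 lay below KO 1 and KO 4. WT averaged 8.32 ± 1.04 (SD, n = 3) and KO 7.32 ± 0.58 (SD, n = 4). The difference of -1.0 had a standard error of 0.491 and a 95% interval of -2.13 to 0.14 (limma, adjusted p = 0.287; exact permutation p = 0.171). The interval thus holds 0 as well as a KO level lower by more than 2 log2 units. Il6 exceeded the negative control median of its array by 1.01 to 3.0 on the WT arrays and by 0.21 to 1.16 on the KO arrays, so that KO 2, KO 3 and KO 4, at 0.33, 0.21 and 0.67, lay near background. Against WT 3 alone the difference was -1.17, and without WT 2 it was -0.52. Relative to the KO mean WT 1 stood at -0.12, WT 2 at 1.94 and WT 3 at 1.17, so the lower KO mean rested on WT 2 and WT 3. On WT 2 the means of the monocyte and macrophage markers (13 of 14 measured, all above the negative control median on every array) and of the cDC2 markers (9 of 9 measured) were 1.50 and 1.71 above the KO mean, against 0.35 and 0.37 on WT 3 and 0.08 and -0.21 on WT 1. Of the cDC2 markers 8 exceeded that median on all WT arrays and 7 on all KO arrays. They were mixed, with 6 lower and 3 higher in KO. Cd209a was highest on WT 2, at 13.23, while Clec12a was lowest there, at 9.89. The part of either marker list in the Il6 values was not tested.

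Tnf encodes the cytokine TNF, made as a membrane protein and shed by the protease ADAM17. Tnf read 11.49, 11.81 and 11.86 on WT 1 to WT 3, and 11.78, 11.32, 11.47 and 11.40 on KO 1 to KO 4. KO 2, KO 3 and KO 4 lay below every WT array, and KO 1 lay between WT 1 and WT 2. The difference was -0.23, with a standard error of 0.146 and a 95% interval of -0.57 to 0.11 (limma, adjusted p = 0.384; exact permutation p = 0.114), and -0.37 against WT 3 alone.

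Tnf and Il6 took much the same order across the arrays. WT 2, WT 3 and KO 1 were the 3 highest arrays for both genes, and KO 2 was the lowest for both. Their Pearson r was 0.87 over the 7 arrays and 0.91 over the 5 arrays without WT 1 and WT 2. Of the 36 pairs of measured members this was the one with r above 0.8 over 7 arrays, but 1 of 4 over the 5 arrays, where Il12a with Ebi3 (0.97), Il27 with Il15ra (0.94) and Il15 with Il1b (0.93) were higher. Il12a did not exceed the negative control median on any array, so its r rests on background values. Il1b had r = 0.26 with Tnf and 0.30 with Il6 over the 7 arrays, and 0.47 and 0.71 over the 5. These correlations are descriptions over arrays that differ in group and in cell type markers.

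**Figure D2:**
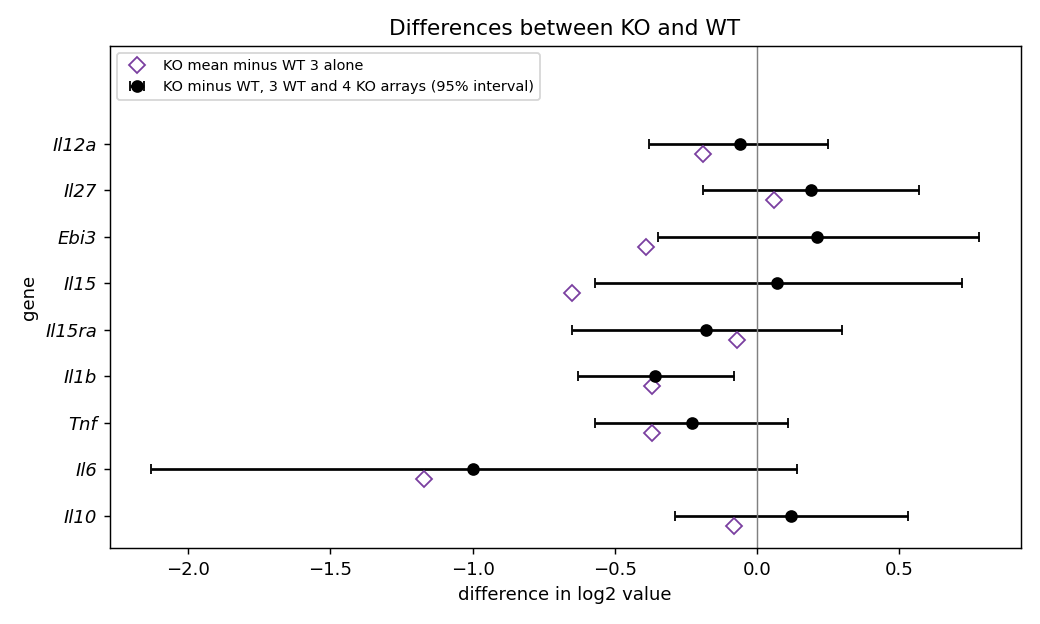
The difference in log2 value between KO and WT (x axis) for each cytokine gene (y axis); black points with bars give limma's estimate over 3 WT and 4 KO arrays with its 95% interval, and open diamonds the KO mean minus WT 3 alone. The interval excludes 0 for Il1b only, before adjustment, and Ebi3, Il15 and Il10 change sign when WT 3 alone is the control.

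Of the 3 measured IL-12 family genes Il12a had a lower and Il27 and Ebi3 a higher mean in KO; against WT 3 alone Ebi3 was lower too. Il12a, the alpha subunit of IL-12, read 6.15, 5.84 and 6.19 on WT 1 to WT 3, and 6.07, 6.17, 5.79 and 5.96 on KO 1 to KO 4. On 0 of the 7 arrays did it exceed that array's median of the negative control probe sets, which ran from 6.19 to 6.88, so Il12a was not above background in either group. Its difference of -0.06 (95% interval -0.38 to 0.25; limma, adjusted p = 0.798) is therefore a comparison of background values.

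Il27, the alpha subunit of IL-27, read 7.69, 7.34 and 7.71 on WT 1 to WT 3, and 7.99, 7.46, 7.68 and 7.96 on KO 1 to KO 4. KO 1 and KO 4 lay above every WT array, and KO 2 and KO 3 lay within the WT range. The difference was 0.19 (95% interval -0.19 to 0.57; limma, adjusted p = 0.511), and 0.06 against WT 3 alone. The negative control medians were also highest on KO 1 and KO 4, and Il27 exceeded them by 0.96 to 1.50 on the 7 arrays; the part of background in the Il27 values was not tested.

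Ebi3, which pairs with the Il27 product in IL-27 and with the Il12a product in IL-35, read 8.57, 8.35 and 9.37 on WT 1 to WT 3. On KO 1 to KO 4 it read 9.02, 9.27, 8.72 and 8.91. All KO arrays lay between the 2 lower WT arrays and WT 3. The difference was 0.21 with the 3 WT arrays (95% interval -0.35 to 0.78; limma, adjusted p = 0.621) and -0.39 against WT 3 alone (adjusted p = 0.842), so its direction depended on which WT arrays were used. Without WT 3 it was 0.51 and passed (limma, adjusted p = 0.0453; range 0.0453 to 0.995 over the alternatives), in a setting where 25.3% of all genes passed and the WT arrays were those that stood apart.

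Il15, the ligand that sustains NK cells and memory CD8 T cells, followed the same split among the WT arrays. Il15 read 9.35, 8.92 and 10.23 on WT 1 to WT 3, and 9.56, 9.36, 9.62 and 9.75 on KO 1 to KO 4. WT 3 was the highest of the 7 arrays, WT 1 and WT 2 the lowest, and the KO arrays lay between them with a smaller spread (SD 0.16, n = 4, against 0.67, n = 3). The difference was 0.07 (95% interval -0.57 to 0.72; limma, adjusted p = 0.895), and -0.65 against WT 3 alone (adjusted p = 0.805). Without WT 2 it was -0.22 and without WT 3 0.44.

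Il15ra, the chain that presents IL-15, read 10.24, 9.52 and 9.72 on WT 1 to WT 3, and 9.80, 9.30, 9.60 and 9.89 on KO 1 to KO 4. WT 1 was highest and KO 2 lowest, and the other 5 arrays were interleaved. The difference was -0.18 (95% interval -0.65 to 0.30; limma, adjusted p = 0.624), -0.07 against WT 3 alone and 0.03 without WT 1. The r of Il15 with Il15ra was 0.18 over the 7 arrays and 0.50 over the 5 without WT 1 and WT 2.

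Il10, which limits antigen presentation and inflammatory cytokine output, read 7.19, 7.76 and 7.77 on WT 1 to WT 3, and 7.81, 7.53, 7.90 and 7.52 on KO 1 to KO 4. WT 1 was the lowest array and the others spanned less than 0.4 log2 units. The difference was 0.12 (95% interval -0.29 to 0.53; limma, adjusted p = 0.711), -0.08 against WT 3 alone and -0.07 without WT 1. Il10 exceeded the negative control median of its array by 0.64 to 1.50, so a change of a weak signal would be compressed here.

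**Figure D3:**
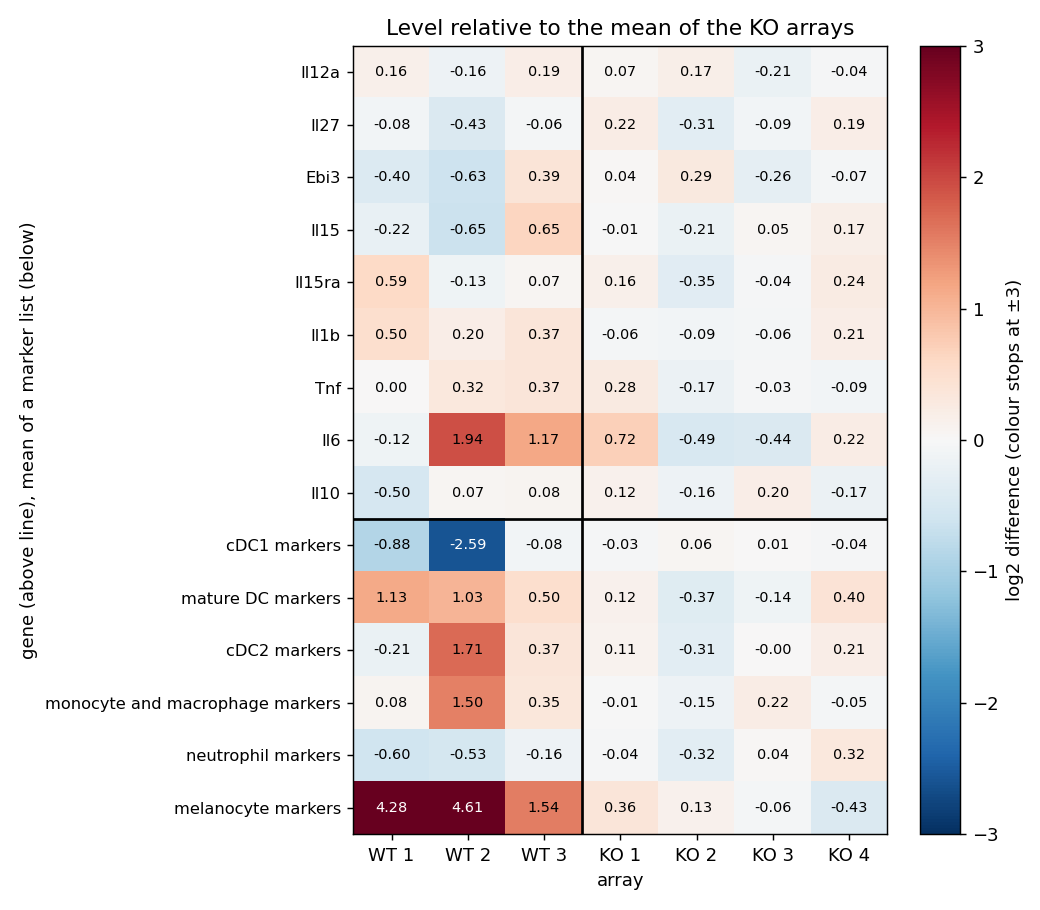
Each cytokine gene (upper rows) and the mean of each of 6 marker lists (lower rows) on each array (columns), as log2 difference from the mean of the 4 KO arrays; red is higher, blue lower, and the colour scale stops before the 2 highest values, printed in their cells. Il6 is highest on WT 2 at 1.94, Il15 and Ebi3 are higher on WT 3 than on WT 1 and WT 2, and the cDC1 markers are at -2.59 on WT 2.

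The other marker lists are given by their ranges. The mean of the plasmacytoid list (8 of 8 measured) ran from -0.49 to 0.40 on the WT arrays and from -0.12 to 0.11 on the KO arrays, relative to the KO mean. For B cells (7 of 8 measured) the ranges were -0.40 to 0.14 and -0.23 to 0.27, for T and NK cells (10 of 10) -0.69 to 0.49 and -0.66 to 0.36, and for fibroblasts and endothelium (8 of 9) -0.21 to 0.09 and -0.22 to 0.11. The members of the latter list went opposite ways, with differences from -1.79 to 1.64 and 4 of 8 at an unadjusted p under 0.05: Pecam1 read 7.95 and 8.33 on WT 1 and WT 2 and at least 10.11 elsewhere, while Kdr read 10.07 and 10.97 there and at most 8.49 elsewhere. In the neutrophil list (11 of 12 measured) 6 genes exceeded the negative control median on all WT arrays and 7 on all KO arrays. Of the mature dendritic cell list 13 of 14 were measured. The mean was lower in KO for 11 and higher for 2. An unadjusted p under 0.05 (limma) was reached by 10, all lower in KO, against 19.6% of all genes. Cd86 went the other way, at 12.09, 11.59 and 12.94 on WT 1 to WT 3 and 12.73 to 12.86 on the KO arrays.

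The wider set of genes around these cytokines also held 0 past the threshold over all genes, in each of 6 lists (limma, smallest adjusted p 0.223), so the genes below are given as values. Their counts stand beside 19.6% of all genes at an unadjusted p under 0.05 and 13.8% without overlap between groups. Of other cytokines 31 of 32 were measured, 7 with an unadjusted p under 0.05 (4 higher and 3 lower in KO), with a median difference of 0.10. Tnfsf9, the ligand of the co-stimulatory receptor 4-1BB, read 11.37, 10.91 and 10.11 on WT 1 to WT 3 and 9.39 to 10.15 on the KO arrays, where KO 1 exceeded WT 3. Il1a, the other IL-1 agonist, read 7.68, 9.48 and 8.18 on WT 1 to WT 3 and 7.35, 7.35, 7.13 and 7.45 on KO 1 to KO 4, so that every KO array lay below every WT array. Tslp lay below the negative control medians on all 7 arrays.

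In the list of antagonists and feedback inhibitors 9 of 10 were measured, 6 with a lower and 3 with a higher mean in KO and a median difference of -0.04. An unadjusted p under 0.05 was reached by 2, Il1r2 and Il1rn, both with lower means in KO. Il1r2, the decoy receptor that takes up IL-1 without signalling, read 10.58, 12.20 and 10.56 on WT 1 to WT 3 and 9.89, 8.87, 9.61 and 9.50 on KO 1 to KO 4. Its groups did not overlap, and its difference was -1.65 (limma, adjusted p = 0.223), or -1.09 against WT 3 alone. Il1rn, the IL-1 receptor antagonist, read 8.97, 10.79 and 7.46 on WT 1 to WT 3 and 7.28 ± 0.28 (SD, n = 4) in KO, so that it was high on WT 1 and WT 2 and at the KO level on WT 3. Il18bp, which binds IL-18, differed by -0.48. Monocyte and macrophage markers were highest on WT 2, as given above, where Il1r2, Il1rn and Il1a were also highest; their part in these values was not tested.

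Of the receptors for these cytokines 13 of 14 were measured, 3 with an unadjusted p under 0.05, all lower in KO, with a median difference of -0.13. Besides Il1r2 these were Il10rb, a chain of the IL-10 receptor, which read 12.04, 11.94 and 11.51 on WT 1 to WT 3 and 11.04, 11.38, 11.52 and 11.34 on KO 1 to KO 4, and Il1r1, the signalling IL-1 receptor. Il1r1 exceeded the negative control median on 2 of the 7 arrays. Of 10 processing and release genes, all measured, 1 had an unadjusted p under 0.05, with a median difference of 0.05. This was Gsdmd, the pore protein through which IL-1 beta leaves the cell, at 10.41, 10.11 and 10.50 on WT 1 to WT 3 and 10.60 to 10.66 on the KO arrays, a difference of 0.29. Unc93b1, the chaperone of endosomal Toll-like receptors, differed by 0.40 and by -0.06 against WT 3 alone, and Adam10, a sheddase, by -0.26.

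Of the transcription factors and regulators of cytokine genes 22 of 24 were measured, 10 with an unadjusted p under 0.05 (7 lower and 3 higher in KO) and 7 without overlap between groups, and the median difference was -0.01. Against WT 3 alone 0 of the 22 had an unadjusted p under 0.05. Nfil3, a transcription factor needed for cDC1 development, read 11.67, 11.37 and 11.44 on WT 1 to WT 3 and 11.12 to 11.25 on the KO arrays, a difference of -0.32, or -0.26 against WT 3 alone. Prdm1, which encodes the repressor BLIMP-1, read 7.78, 9.13 and 7.38 on WT 1 to WT 3 and 6.98, 5.83, 6.64 and 7.30 on KO 1 to KO 4, and exceeded the negative control median on 5 of the 7 arrays, lying below it on KO 2 and KO 3. Fos, a subunit of AP-1, was 0.53 higher in KO, and 0.10 higher against WT 3 alone. Of the sensing and signalling genes 17 of 18 were measured, 6 with an unadjusted p under 0.05 (5 higher and 1 lower in KO), with a median difference of 0.02. Ifngr1, a chain of the interferon gamma receptor, read 10.70, 10.46 and 12.16 on WT 1 to WT 3 and 12.34 ± 0.05 (SD, n = 4) in KO. Tlr12, a Toll-like receptor of cDC1 for parasite profilin, read 8.80, 7.64 and 10.67 on WT 1 to WT 3 and 10.61 ± 0.02 (SD, n = 4) in KO, with WT 3 next to the KO arrays and WT 1 and WT 2 far below. Tlr4, the receptor for lipopolysaccharide, differed by -0.90, or by -0.28 against WT 3 alone, and exceeded the negative control median on 6 of the 7 arrays, lying below it on KO 4.

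**Figure D4:**
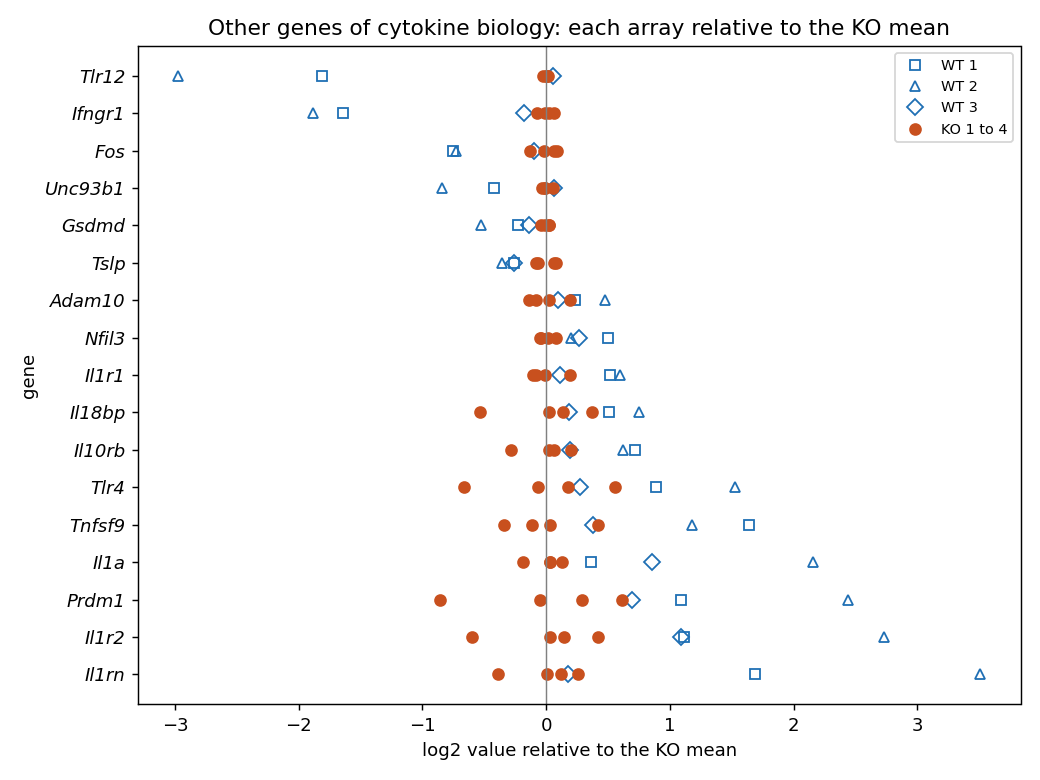
Log2 value relative to the KO mean (x axis) on each array for the 17 genes named from the 6 wider lists (y axis, ordered by their difference); open symbols are the WT arrays and filled circles the 4 KO arrays. WT 1 and WT 2 lie far from the KO arrays for Tlr12, Ifngr1 and Il1rn while WT 3 lies near them, whereas all WT arrays lie above the KO arrays for Il1a and Il1r2.

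The genes whose values ran most like each cytokine were ranked by Pearson r over the 7 arrays among the named genes at or above the median mean level. For Il1b these were Sumo2 (r = 0.995), Syt12 (0.980) and Pglyrp1 (0.977), for Tnf Pram1 (0.987), Guf1 (0.964) and Ptar1 (0.947), and for Il6 Tmem175 (0.985), Rnf217 (0.970) and Ccdc43 (0.957). For Ebi3 they were Myl6 (0.980), Purb and Bloc1s3, for Il27 Tspoap1 (0.986), Dlx1 and Cxcl12, and for Il12a, whose values were background, Trappc10 (0.957), Itprip and Klhdc4. For Il15 the first was Timmdc1 (0.992) and the second Ctla4, an inhibitory T cell receptor, for Il15ra they were Ngef (0.961), Zfp36l1 and Ptk2b, and for Il10 Jph4 (0.971), Clpx and Klhl2. With 7 arrays and 9752 or 9753 genes ranked, values of this size describe these arrays only.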

How the data were processed

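Total RNA of sorted splenic cDC1 was labelled with a whole-transcript kit and hybridised to 7 arrays (3 WT, 4 KO), grouped by sample title. The authors deposited 1 table of 28846 probe sets on a log2 scale, made, per the submitters' processing notes, with Affymetrix Expression Console 1.1 and RMA; the scale was inferred from the values. The genome build of the probe annotation was not used here. RMA compresses weak signals and so understates their changes; precision is set by how few arrays there are. Platform annotation named 19572 of 22206 transcript probe sets (1 symbol each; all matched by gene identifier), and the highest mean per symbol was kept, which left 19505 genes.

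KO was compared with WT over all genes with limma 3.58.1 in R 4.3.3 (lmFit, eBayes, no covariate), with Benjamini-Hochberg adjustment, a threshold of 0.05 and 95% intervals. For single members an exact permutation test (two-sided) went over the 35 ways to divide the arrays (scipy 1.17.1). The script was tested on simulated data that gave every array the spread of the KO arrays, so the test does not measure power in these data. Members, 6 wider lists and 10 marker lists were chosen with earlier results of these data known. Named were all members, 3 genes per wider list by smallest unadjusted p, and the 3 genes most like each member. Alternatives left out arrays, used the replicate number as a block, rescaled, filtered or reweighted the arrays. Promoter sequences came from RefSeq (GRCm38.p6).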

Additional observations from a re-analysis of the deposited data

Results flagged for a closer look

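Il1b on the array labelled KO 4 stood apart from the other KO arrays. It read 12.97 there and 12.68 to 12.71 on KO 1 to KO 3, a gap of 0.898 of the range of the 4 arrays, above Dixon's 95% critical value. Chance flags about 1 in 20 groups, and 9 genes were looked at. Opa1 was also highest on KO 4 among the KO arrays, at 8.24. Without KO 4 the Il1b difference was -0.42 (limma, adjusted p = 0.350).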

How the results depend on the processing

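Il1b and Tnf kept their direction in all 15 alternatives, and so did Il27 and Il6 in those that gave them a value. The filter on dim genes removed Il12a, Il27, Il6 and Il10. Not all of these are separate checks of direction. The dim filter, a trended and robust variance and the mean of all probe sets cannot change the difference of a member. The replicate block repeats the differences without KO 4. The number of genes past the threshold was 0 except without WT 3 (4931 genes) and with array weights (4458 genes), which gave WT 3 the lowest weight, 0.2415. An unadjusted p under 0.05 was reached by 3820 genes (2068 with a lower and 1752 with a higher KO mean), and after median centring the split turned to 1814 and 2469. Among the cytokines 0 passed except 1 without WT 3 (Ebi3, 0.51) and 1 with array weights (Il1b, -0.44, limma adjusted p = 0.0273). In those settings 25.3% and 22.9% of all genes passed. In the main fit 1 cytokine had an unadjusted p under 0.05. Without WT 3 and without KO 1 there were 3 each, where 7189 and 2449 of the 19505 genes did so. Leaving out 1 array at a time gave 0 to 4931 genes and 0 to 1 cytokines past the threshold. The differences then ranged from -0.18 to 0.01 for Il12a, 0.07 to 0.30 for Il27, 0.01 to 0.51 for Ebi3, -0.22 to 0.44 for Il15, -0.33 to 0.03 for Il15ra, -0.44 to -0.28 for Il1b, -0.34 to -0.16 for Tnf, -1.56 to -0.52 for Il6 and -0.07 to 0.22 for Il10. With WT 1 and WT 2 both left out the sign reversed for Ebi3 (-0.39), Il15 (-0.65), Il10 (-0.08), Unc93b1 (-0.06) and Tlr12 (-0.06). The cause was not tested. Same-numbered arrays did not deviate together from their group means (r = -0.04, 0.05 and -0.02 for numbers 1 to 3). WT 1 and WT 2 stood apart from WT 3, so these values cannot show whether same-numbered arrays were paired. With the replicate number as a block 0 genes and 0 cytokines passed (2488 genes at an unadjusted p under 0.05). Il6 was then at -1.07 and Il1b at -0.42, the values without KO 4, which has no same-numbered WT array. Weak signals limit what can be seen of Il12a, which did not exceed background, of Il6 on KO 2, KO 3 and KO 4, and of Il10 and Il27. Background here is the median of the negative control probe sets, whose 95th percentile ran from 9.37 to 10.19 over the arrays. Il1b and Tnf exceeded that percentile on every array, while Il12a, Il27, Ebi3, Il6 and Il10 lay below it on every array. Il15 exceeded it on WT 3 only, and Il15ra on WT 1 and WT 2 only.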
